A study of Mus musculus with 10 samples.

Results

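The genes described here encode the nuclear subunits of the respiratory chain and of ATP synthase in C2C12 cells, a line of mouse myoblasts that fuse into myotubes when serum is reduced. They were taken by name from 4 gene tables, as every row whose symbol starts with Nduf, Sdha to Sdhd, Uqcr, Cox followed by a digit, or Atp5. There were 103 such rows of 23417 genes in each Huwe1 table and of 23431 in the USP10 table, and 100 of them reached at least 1 FPKM (fragments per kilobase, corrected for the size of the library) in at least 1 column. Cox4i2, Cox8c and Ndufa4l2 stayed under 1 FPKM in all 8 columns. Of the 100, 36 encode subunits of complex I, 4 of complex II, 8 of complex III, 16 of complex IV and 15 of ATP synthase. The name rule also takes in 18 assembly factors (such as Ndufaf, Sdhaf, and Cox10 to Cox20). A further 3 genes matched by name (Cox7a2l, Atp5s and Atp5sl) were placed in neither class here. No gene stood at 0 in one column of a table and at 1 FPKM or more in the other, so none was set apart as an artifact of a short transcript.

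Complexes I to IV pass electrons from NADH and succinate to oxygen. Complexes I, III and IV pump protons across the inner mitochondrial membrane, and ATP synthase (complex V) uses the returning protons to make ATP. Nearly all of their subunits are encoded in the nucleus, and a few core subunits in the mitochondrial DNA. Complex IV, cytochrome c oxidase, has some subunits with paired isoforms, of which Cox6a2, Cox7a1 and Cox8b are the heart and skeletal muscle forms and Cox6a1, Cox7a2 and Cox8a the forms of most other tissues.

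The study asked how Huwe1, a ubiquitin ligase, and USP10, a deubiquitinase, act on the TATA-binding protein TBP and on muscle differentiation. At day 0 (D0), wildtype C2C12 cells in growth medium were compared with 2 Huwe1 knockdown libraries, each from its own small hairpin RNA. At D6, after 6 days in differentiation medium, the wildtype was compared with 2 knockdown libraries carrying the same pair of hairpins as at D0. At D8, after 8 days in that medium, myotubes given a non-targeting RNA were compared with 2 knockdown libraries with another pair of hairpins, introduced by lentivirus only once myotubes had formed. The sample labels give these 2 pairs of hairpin sequences, whereas the methods list only the D8 pair, for myoblasts and myotubes alike. The fourth experiment is 1 library of cells carrying a USP10 cDNA under the EF1a promoter, after 6 days in differentiation medium. Each table gives 1 FPKM value per condition, with both knockdown libraries pooled into 1 value, so no difference below has a replicate check or a test. The USP10 table names the D6 wildtype library as its control, but its control values are not a rescaling of those in the D6 table, and it is called the control of the USP10 table here.

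The labels were checked before the results. Huwe1 measured 38.3 FPKM in the D0 control and 15.2 in the D0 knockdown, 35.1 and 21.9 at D6, and 55.5 and 33.0 at D8. Usp10 measured 10.3 FPKM in the control of the USP10 table and 38.3 with USP10 overexpression. It was also higher in the D6 Huwe1 knockdown, at 35.4 FPKM against 13.2 in the D6 control. Over all genes with 1 FPKM or more in both columns, the D6 Huwe1 knockdown and the D6 USP10 overexpression lay closer to each other (robust SD of the log2 ratio 0.42) than the 2 day 6 control columns did (0.56) or than either lay to its own control (0.74 and 0.53). Whether these 2 treated columns come from separate cultures and libraries, as labelled, was not tested, so they are not read as independent of each other. They also shared high levels of the fibroblast markers Dcn, Ly6a and Cd34. Pdgfra was higher than its control in both, but at a low level. It measured 1.02 FPKM in the D6 control and 5.3 in the D6 knockdown (log2 ratio 2.38). In the USP10 table it measured 2.96 and 3.98 (0.43), and in the D8 knockdown 7.74. Dcn alone measured 2987 and 3037 FPKM in these 2 day 6 treated columns. The 4 fibroblast genes (Dcn, Ly6a, Cd34 and Pdgfra) summed to 3721 FPKM in the D6 knockdown and 3563 FPKM with USP10 overexpression, against a range of 13.1 to 112.3 FPKM in the other 6 columns. The 8 muscle markers, from Myog to Des, summed to 18925 FPKM in the D6 control and 4892 in the D6 knockdown, 15507 and 3396 at D8, and 8894 and 5157 in the USP10 table, and all 8 were lower in each of these 3 treated columns. The endothelial gene Cdh5 measured 0.02 FPKM in the D6 control and 6.82 in the D6 knockdown, 0.28 and 6.81 in the USP10 table, and 13.5 and 11.2 at D0, while Pecam1 stayed under 0.4 FPKM in every column. The 4 markers of proliferating cells (Mki67, Top2a, Ccnb1 and Cdk1) summed to 3.09 FPKM in the D6 control and 15.99 in the D6 knockdown, 129.3 and 11.9 at D8, 12.7 and 10.4 in the USP10 table, and 424 and 489 at D0. The adipocyte genes Adipoq and Plin1 were at 0 in the control columns, and the leukocyte gene Ptprc was under 0.02 FPKM in every column. The part of cell composition in the values below was not tested, and in bulk RNA fewer cells of a type cannot be told apart from less RNA per cell.

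The muscle isoforms of complex IV had the lowest ratios of all members at D6, and were at least 2-fold lower at D8 and with USP10 overexpression too. Promoters are shown for Cox8b and Cox7a1, the 2 members with the lowest ratios at D6, for Cox6a1, the partner of Cox6a2, which was not lower, and for Ndufs4, a complex I gene that was lower at D6 and with USP10 overexpression. Each line gives the 300 bases from 250 before to 50 after the RefSeq start (GRCm38.p6), 5′ to 3′ on the gene's strand, with matches to the searched motifs in capitals. The Cox8b window is chr7:140900397-140900696 on the minus strand, that of Cox7a1 chr7:30183921-30184220 on the plus strand, that of Cox6a1 chr5:115348909-115349208 on the minus strand and that of Ndufs4 chr13:114388045-114388344 on the minus strand.
Cox8b: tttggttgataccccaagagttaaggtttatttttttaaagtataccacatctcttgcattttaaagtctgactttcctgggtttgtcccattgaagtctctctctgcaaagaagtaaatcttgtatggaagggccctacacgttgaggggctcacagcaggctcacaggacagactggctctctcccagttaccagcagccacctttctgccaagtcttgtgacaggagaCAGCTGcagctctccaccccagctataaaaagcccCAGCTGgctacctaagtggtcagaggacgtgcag
Cox7a1: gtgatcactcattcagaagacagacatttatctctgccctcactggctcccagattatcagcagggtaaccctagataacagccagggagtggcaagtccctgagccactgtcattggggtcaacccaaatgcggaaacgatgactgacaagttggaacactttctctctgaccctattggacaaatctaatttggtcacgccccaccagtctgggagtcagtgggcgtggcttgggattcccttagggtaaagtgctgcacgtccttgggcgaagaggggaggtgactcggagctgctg
Cox6a1: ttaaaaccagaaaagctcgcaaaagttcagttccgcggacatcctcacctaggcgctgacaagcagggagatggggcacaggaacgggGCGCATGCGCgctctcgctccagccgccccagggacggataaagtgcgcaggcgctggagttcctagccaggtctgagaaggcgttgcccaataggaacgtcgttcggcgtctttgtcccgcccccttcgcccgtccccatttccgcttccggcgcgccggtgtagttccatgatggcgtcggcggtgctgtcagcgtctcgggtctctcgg
Ndufs4: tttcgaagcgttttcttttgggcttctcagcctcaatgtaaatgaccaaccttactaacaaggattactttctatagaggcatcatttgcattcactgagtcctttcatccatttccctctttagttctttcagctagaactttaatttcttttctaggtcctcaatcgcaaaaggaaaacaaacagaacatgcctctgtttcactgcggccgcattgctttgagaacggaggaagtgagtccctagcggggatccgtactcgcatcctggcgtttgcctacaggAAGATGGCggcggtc
The capitals in Cox8b are 2 copies of the E-box CAGCTG, a form bound by myogenic bHLH factors such as MyoD, whose first bases lie at -19 and 16 from the start. The Cox7a1 window holds none of the motifs searched. In Cox6a1 the capitals are 2 overlapping copies, on opposite strands, of GCATGCGC, a core of the site of NRF1, a regulator of nuclear genes for mitochondrial proteins. In Ndufs4 they are AAGATGGC, a core of the YY1 site, starting at 35.

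Of the 100 genes, 85 had a RefSeq promoter. Cox6a2 was not among them, so it was not searched for motifs. On either strand, GCATGCGC was present in 12 of 85 (14.1%) against 3.05% of the 27025 genes with a promoter, and AAGATGGC in 13 of 85 (15.3%) against 3.19%. TCAAGGTCA, the site of the estrogen-related receptors, was in 2 of 85 (2.35%), Atp5g3 and Sdhd, against 0.466%. CAGCTG was in 6 of 85 (7.06%) against 18.3%, in Atp5b, Cox8b, Ndufa8, Ndufb10, Ndufs5 and Ndufv2. The TATA box TATAAA, searched after the sequences had been seen, on the gene strand and from 40 to 20 bases before the start, was in 0 of 85, against 2.41% of all genes. In Cox8b these letters start 4 bases past the annotated start. The 27025 genes were not limited to those expressed in these cells, so the shares are not read as particular to the members. Genes with the same motif varied widely. Those with GCATGCGC ranged at D6 from a log2 ratio of -0.89 for Uqcrc1 to 0.25 for Cox6a1, and those with AAGATGGC from -1.26 for Ndufs4 to 0.32 for Atp5sl.

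Cox6a2, on chromosome 7 within a Cuffdiff locus of mm10 from 128173946 to 128206366 that covers more than this gene, measured 0.46 FPKM in the D0 control and 0.34 in the D0 knockdown. It measured 379 FPKM in the D6 control and 64.8 in the D6 knockdown, 84.7 and 34.6 at D8, and 375 and 146 in the USP10 table. Both day 6 controls thus stood near one level, and both day 6 treated columns below it. The log2 ratios of treated to control, with 0.01 FPKM added to each value, were -2.55 at D6, -1.29 at D8 and -1.36 with USP10.

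Cox8b (chromosome 7, 140898942 to 140900446) was listed at 0 in both D0 columns. It measured 134 FPKM in the D6 control and 13.6 in the D6 knockdown, 20.7 and 9.94 at D8, and 37.4 and 1.86 in the USP10 table, with log2 ratios of -3.30, -1.05 and -4.33. The USP10 column rests on about 18.3 fragments by the depth estimate, and its control on about 105.0. Cox7a1 (chromosome 7, 30184171 to 30186030) measured 0.52 and 0.99 FPKM at D0, 27.7 and 2.34 at D6, 8.74 and 4.12 at D8, and 5.04 and 1.62 in the USP10 table. Its log2 ratios were -3.56 at D6, -1.08 at D8 and -1.63 with USP10, the last on about 15.5 and 17.4 fragments. The direction of all 3 genes was therefore the same in the 3 differentiated comparisons, but their control levels were not. The 2 day 6 controls differed 5.50-fold for Cox7a1 and 3.59-fold for Cox8b, and 1.01-fold for Cox6a2.

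The partner isoforms lay closer to their controls. Cox6a1 measured 49.9 FPKM in the D6 control and 59.4 in the D6 knockdown, 53.1 and 63.5 at D8, and 73.2 and 83.8 in the USP10 table. Cox8a measured 91.4 and 150.0 FPKM at D6, the highest log2 ratio of that comparison among the members (0.72), but 79.7 and 65.3 at D8. Cox7a2 was within a log2 ratio of 0.5 of its control in every comparison. Within a column, a share of the pair's summed FPKM does not depend on the scaling of the table. Cox6a2 made up 88.4% of its pair in the D6 control and 52.2% in the knockdown, 61.4% and 35.2% at D8, 83.7% and 63.5% in the USP10 table, and 0.69% in the D0 control. Cox8b made up 59.5% and 8.33% at D6, 20.6% and 13.2% at D8, and 24.7% and 1.54% in the USP10 table. For Cox7a1 the shares were 36.2% and 5.45%, 22.2% and 14.3%, and 11.1% and 2.78%. Each of these 9 pairs of columns had the lower share in the treated column.

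**Figure D1:**
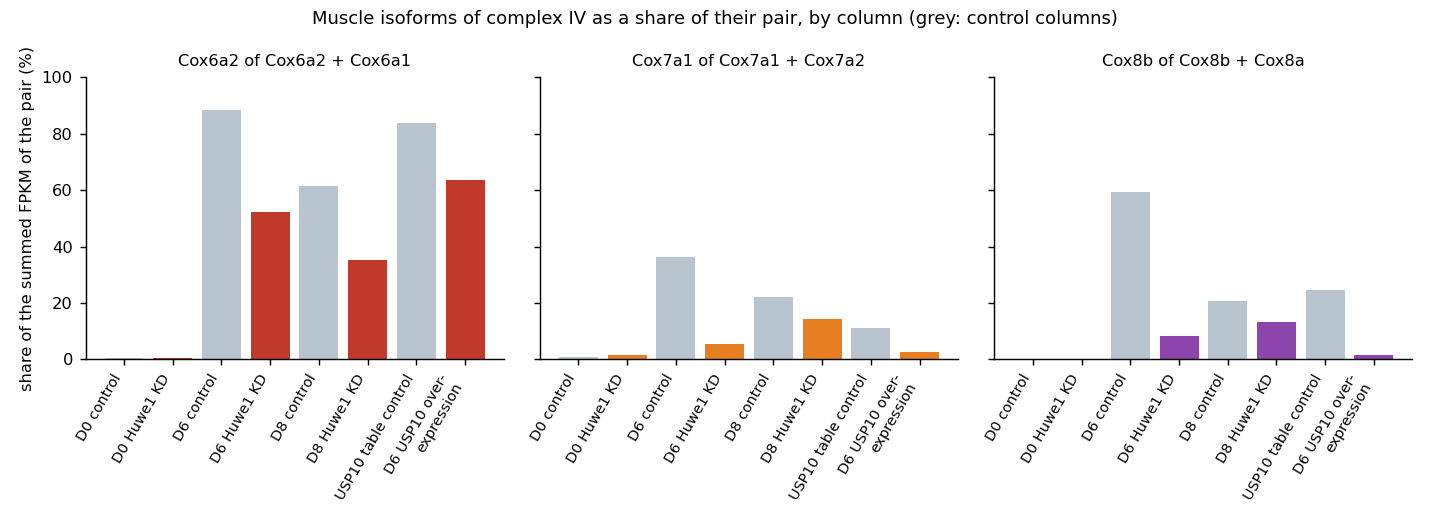
Share of Cox6a2, Cox7a1 and Cox8b in the summed FPKM of the isoform pair (y axis, percent) in each of the 8 columns, with control columns in grey and treated columns in colour. Each bar is 1 value without error. The muscle isoform is near 0 at D0, highest in the D6 control (88.4%, 36.2% and 59.5%), and lower in the treated than in the control column at D6, at D8 and in the USP10 table.

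The other pairs held 1 form at a high level. Cox4i2 stayed under 0.3 FPKM beside 208 to 407 FPKM of Cox4i1, and Cox6b2, the testis form, reached 1.37 FPKM at most beside 158 to 357 FPKM of Cox6b1. Cox7b2 was at most 1.25 FPKM beside 218 to 385 FPKM of Cox7b. Atp5g1, Atp5g2 and Atp5g3 encode the same mature subunit c of ATP synthase. Atp5g1 made up 15.1% of their sum in the D6 control and 8.08% in the D6 knockdown, while Atp5g2 held 158 and 153 FPKM. At D8, Atp5g3 went from 37.8% of the sum in the control to 25.7% in the knockdown, and Atp5g1 stayed at 12.8% and 12.6%. Atp5g1 and Atp5g2 share 66.0% and 87.4% of their 50-base stretches with other genes, so how reads were divided among copies could enter these values.

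In proliferating myoblasts at D0 the genes stood near their control level with Huwe1 knockdown. There were 96 counted, that is with 1 FPKM or more in 1 column. None was lower by 2-fold or more (0 of 96, against 1.57% of all genes), and 1 was higher by as much (1.49%). Lower at all were 54 of 96, against 49.8% of all genes, and the median log2 ratio was -0.02, with 0.00 over all genes. Complex III had the lowest values, with Uqcr10 at 60.5 and 37.2 FPKM (log2 ratio -0.70), Uqcrq at 559 and 371 (-0.59) and Uqcrc1, a core protein of the complex, at 246 and 164 (-0.58). Ndufa3 (-0.64) and Atp5g1 (-0.56) completed the lowest 5. The highest was Ndufs5, an accessory subunit of complex I, at 17.1 and 45.1 FPKM (1.40), of whose 50-base stretches 41.2% are shared with another gene. Next among those with at least 10 FPKM in 1 column came Cox6c (0.48), Ndufc1 (0.48), Sdhaf2 (0.46) and Ndufaf6 (0.44), and below that level Cox7b2 gave 0.75 and Atp5s 0.67.

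At D6 the genes as a group were lower in the knockdown. Of 98 counted, 88 were lower at all, against 50.6% of all genes. A gap of 2-fold or more was found downward for 16 (13.3% of all genes) and upward for 0 (17.1%). The median log2 ratio was -0.60, while that of all genes was -0.01. The share past 2-fold downward was thus near that of all genes, and the group differed from them in the number lower by less than 2-fold and in the absence of higher ones. Complex I had a median of -0.74 with 34 of 36 lower, complex III -0.88 with 8 of 8, ATP synthase -0.61 with 15 of 15, complex IV -0.54 with 12 of 14, and complex II -0.14 with 3 of 4.

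Ndufs1, the large iron-sulfur subunit of complex I, measured 141.5 FPKM in the D6 control and 68.5 in the knockdown (log2 ratio -1.05). Ndufv1, which binds NADH, measured 189 and 96.1 (-0.98). All 7 core subunits of complex I encoded in the nucleus were lower. Ndufb7 (chromosome 8, 83566758 to 83571623), an accessory subunit, had the widest gap in the complex at 673 and 132 FPKM (-2.35). The 2 genes of complex I that were not lower were Ndufa5, at 311.5 and 476 (0.61), and Ndufa7, at 125 and 126 (0.02).

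In complex II, Sdha, the flavoprotein of succinate dehydrogenase, measured 185 and 105 FPKM (-0.81). The other 3 subunits stood closer to the control, with Sdhb at 63.1 and 54.0 (-0.22), Sdhc at 67.8 and 64.9 (-0.06) and Sdhd at 77.3 and 78.1 (0.01). In complex III, Uqcrfs1, the Rieske iron-sulfur protein, measured 121 and 61.2 FPKM (-0.98), and the core proteins Uqcrc1 and Uqcrc2 gave -0.89 and -0.63. Uqcrb, at 674 and 335 FPKM, was the lowest of the 8 (-1.01).

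Outside the muscle isoforms, complex IV gave -0.88 for Cox4i1 (407 and 221 FPKM), -0.65 for Cox5b, the most abundant member by FPKM in every column (1318 and 842 here), and -0.44 for Cox5a. In ATP synthase, Atp5b, the catalytic beta subunit, measured 875 and 531 FPKM (-0.72), Atp5a1, the alpha subunit, 252 and 169 (-0.58), and Atp5c1, the gamma subunit of the central stalk, 272 and 185 (-0.56). Atp5o (chromosome 16, 91925223 to 91931630), the stalk subunit that confers oligomycin sensitivity, had the widest gap at 497 and 159 (-1.65). The core subunits named here apart from Sdhb thus lay between 1.35-fold and 2.06-fold below its control. Assembly factors had a median of -0.43 with 15 of 18 lower, led by Cox19 (-1.44), a copper-related factor, and Cox15 (-1.16), which makes heme A. Among members with at least 10 FPKM in 1 column, the highest after Cox8a and Ndufa5 were Cox6a1 (0.25), Sdhaf2 (0.07) and Cox7a2l (0.07), and below that level Atp5sl gave 0.32.

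**Figure D2:**
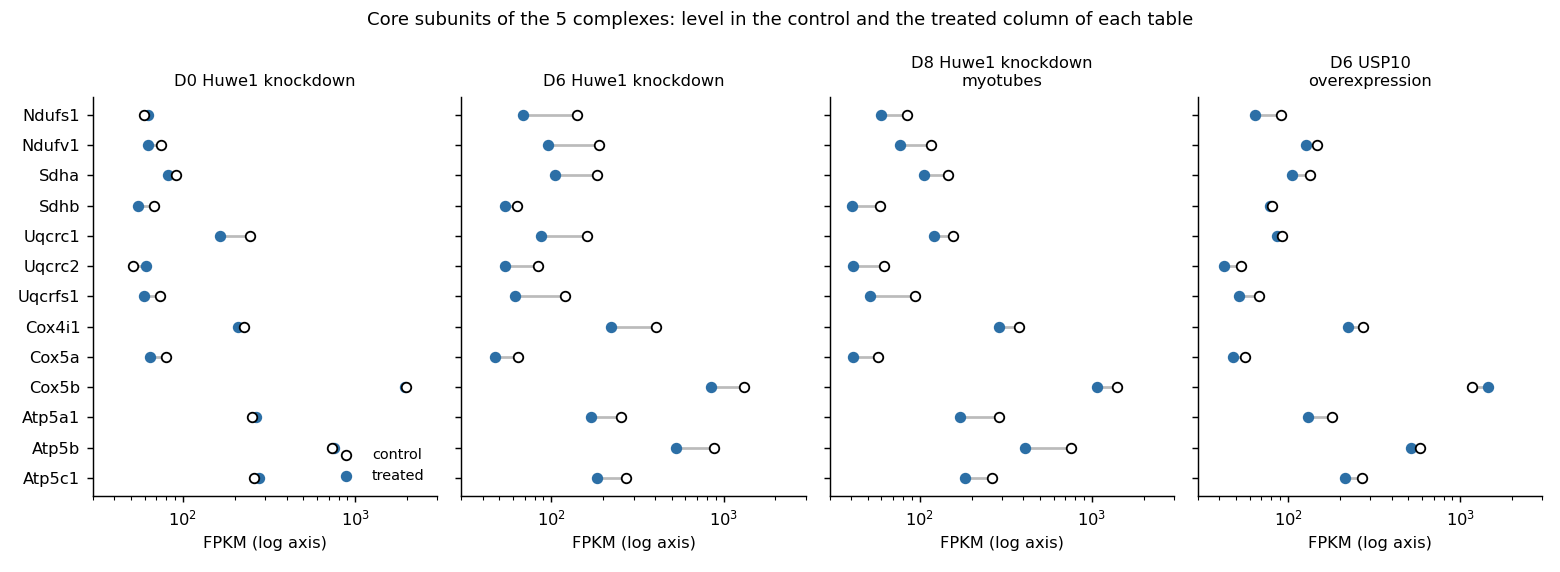
FPKM (x axis, log scale) of 13 core subunits in the control column (open circles) and the treated column (filled circles) of each table, 1 value per condition and no error. At D6 and D8 the 13 treated values lie left of their controls, at D0 the treated values lie on either side, with the widest gap at Uqcrc1 (246 and 164), and with USP10 overexpression 12 lie to the left and Cox5b to the right.

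In the D8 myotubes, where the knockdown began after fusion, the values were again lower but over a narrower range. Of 98 counted, 86 were lower at all, against 50.1% of all genes, 4 were lower by 2-fold or more (9.96%) and 0 higher by as much (7.42%). The median was -0.41, with 0.00 over all genes. The 4 were Cox6a2 (-1.29), Ndufs5 (-1.14, at 74.3 and 33.7 FPKM), Cox7a1 (-1.08) and Cox8b (-1.05). Next lowest among those with 10 FPKM or more were Atp5b, at 752 and 407 FPKM (-0.89), and Atp5f1, a subunit of the peripheral stalk, at 276 and 149 (-0.88).

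ATP synthase had the lowest median of the complexes at D8 (-0.61, 14 of 15 lower), and complex II, near the control at D6 apart from Sdha, had all 4 subunits between -0.58 and -0.47. Complex III stood at -0.52 (8 of 8), complex I at -0.43 (33 of 36) and complex IV at -0.38 (12 of 14), while assembly factors stood at -0.14 (14 of 18). Uqcrfs1 measured 93.4 FPKM beside 51.8 with knockdown (-0.85) and Ndufs1 84.9 and 59.8 (-0.51). Ndufb7, wide apart at D6, measured 387 and 299 (-0.37). The highest with at least 10 FPKM in 1 column were Cox7c (0.33), Cox6a1 (0.26), Ndufb3 (0.17), Ndufb9 (0.07) and Ndufaf1 (0.06), and below that level Atp5sl, at 3.34 and 5.70 FPKM, gave 0.77. Muscle markers were lower here too, as given above, and so were those of proliferating cells. Fibroblast markers summed to 27.2 FPKM in control and 26.2 in knockdown myotubes, with Dcn at 4.19 and 8.75, Pdgfra at 1.95 and 7.74, Ly6a at 13.9 and 4.28, and Cd34 at 7.22 and 5.45.

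With USP10 overexpression the members split. Of 99 counted, 65 were lower at all, against 46.9% of all genes, 7 were lower by 2-fold or more (9.90%) and 2 higher by as much (9.03%). The median was -0.19, with 0.04 over all genes. Beside the muscle isoforms, the lower ones were Ndufb7, at 396.5 and 140.5 FPKM (-1.50), Ndufs4 at 66.9 and 28.4 (-1.23), Ndufa9 at 79.7 and 38.8 (-1.04), and Cox6b2 at 1.37 and 0.47, on an estimated 4.63 and 5.64 fragments from libraries of unequal depth. The same complex I genes measured 673 and 132, 65.4 and 27.2, and 101.4 and 43.0 FPKM in the D6 control and D6 Huwe1 knockdown.

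The 2 higher ones were Ndufa5, at 224 and 590 FPKM (1.40), and Atp5k, the e subunit of ATP synthase, at 260 and 566 (1.12). Atp5e, its epsilon subunit, followed at 100.2 and 197 (0.98), then Ndufb3 (0.73) and Ndufa4 (0.57). Atp5e, Atp5k and Ndufa5 have transcripts under 500 bases. In the D6 control they measured 195.5, 643 and 311.5 FPKM, so the USP10 library lay below the D6 control for Atp5k (566 against 643) and level with it for Atp5e (197 against 195.5), and above both controls for Ndufa5. Complex medians lay between -0.28 (complex IV) and -0.14 (complex III), with assembly factors at -0.03. The core subunits gave -0.50 for Ndufs1, -0.47 for Atp5a1, -0.35 for Sdha, -0.17 for Atp5b and 0.30 for Cox5b.

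**Figure D3:**
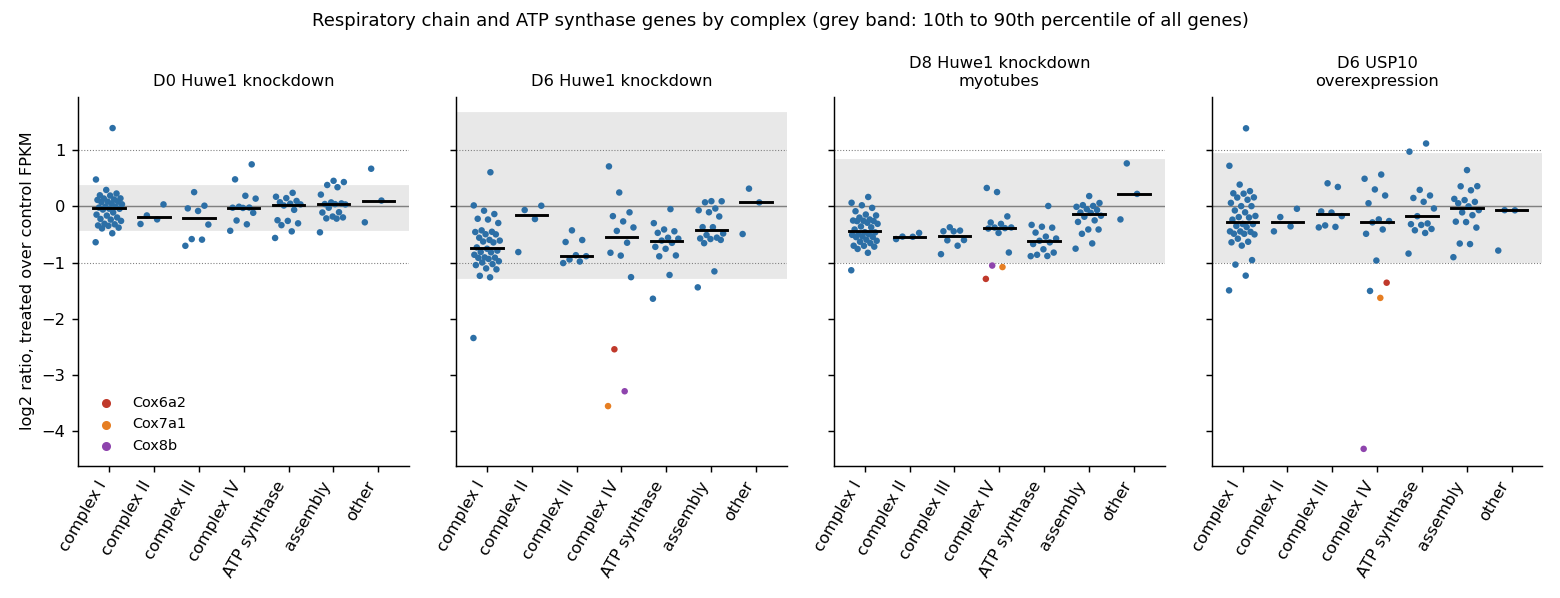
Log2 ratio of treated to control FPKM (y axis) for each counted gene, grouped by complex (x axis), in the 4 comparisons. Each point is 1 gene, black bars are medians, the grey band spans the 10th to the 90th percentile of all genes, and dotted lines mark a 2-fold difference. At D6 and D8 most points lie between 0 and -1, and the muscle isoforms Cox6a2, Cox7a1 and Cox8b lie below the other genes of complex IV.

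The 2 day 6 control columns give the only measure of how far untreated values differ between tables. Their ratio (control of the USP10 table over D6 control) had a median log2 of -0.28 over 99 members, with a robust SD of 0.47, and 8 of 99 differed at least 2-fold. Over all genes the robust SD was 0.63 and 19.0% differed at least 2-fold. Of the members, 67 had a larger D6 knockdown ratio than control difference, with Cox6b2, at 0 in the knockdown, among them. This count was not made over all genes and both ratios use the D6 control, so it is not read as a result about the members. The D6 knockdown lay below both control columns for 66 of 98 members, against 36.4% of all genes, and above both for 4, against 38.5%. The USP10 library lay below both for 58 of 98, against 37.0%, and above both for 17, against 39.6%. Set against the control of the USP10 table, the D6 knockdown had a median of -0.30 with 7 at least 2-fold lower, in place of -0.60 with 16. Set against the D6 control, the USP10 library had a median of -0.44 with 14 at least 2-fold lower, in place of -0.19 with 7. The share of all genes at least 2-fold apart in either direction, after centring on their median, changed with the control too. For the D6 knockdown it was 23.37% with the D6 control and 15.78% with the control of the USP10 table. For the USP10 library it was 25.16% and 13.45%.

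The control difference was widest among the shortest transcripts. Members had transcripts of 315 to 4798 bases. In the 14 under 500 bases the median size of the log2 control difference was 0.81, and 5 differed at least 2-fold. In the 46 of at least 500 but under 1000 bases it was 0.36 with 3, and in the 39 of 1000 bases or more 0.35 with 0. Cox7a1, Cox8b, Atp5k and Ndufa5 are in the short class, and Cox6a2, at 680 bases, is not. At D6 the median ratio was -0.87 in the short class, -0.50 in the middle class and -0.58 in the long class.

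**Figure D4:**
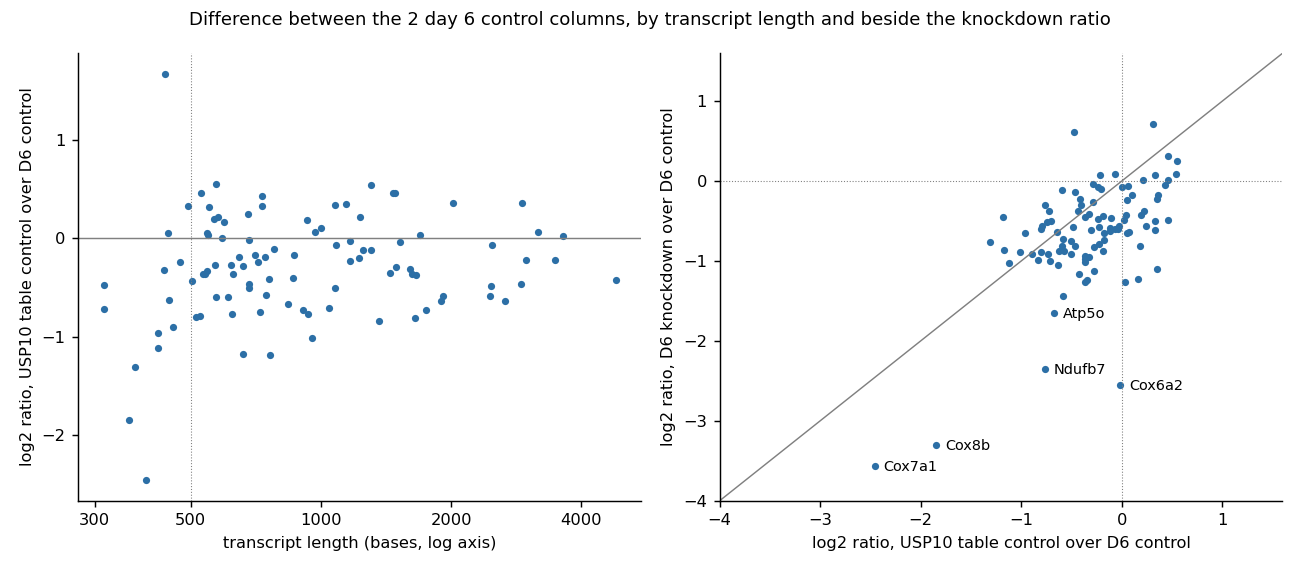
Left, log2 ratio of the 2 day 6 control columns (y axis) against transcript length (x axis, bases, log scale), 1 point per gene, with a dotted line at 500 bases. Right, log2 ratio of D6 knockdown to D6 control (y axis) against the same control ratio (x axis), with a line of equality. Genes under 500 bases spread most between controls, and Cox6a2, with almost no control difference, has a knockdown ratio of -2.55.

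Levels across tables are descriptions, since each table was normalised on its own. Summed over the 100 genes, FPKM was 14141 in the D0 control and 13680 in the D0 knockdown, 18810 and 11895 at D6, 15328 and 11046 at D8, and 15528 and 14331 in the USP10 table. The D6 control lay above the D0 control for 71 of 97 genes, against 5360 of 11363 over all genes. The median log2 ratio was 0.50 (all genes -0.07). At least 2-fold higher were 22 of 97, a share near that of all genes (2276 of 11363). Complex I led with a median of 0.69, and Ndufb7 went from 99.9 to 673 FPKM. The control of the USP10 table had a median of 0.19 over the D0 control and the D8 control 0.13, so the size of the difference depended on which differentiated control was used. The D6 knockdown had a median of 0.01 over the D0 knockdown, and the USP10 library -0.02 over the D0 control. The most abundant member, Cox5b, ran from 842 to 1966 FPKM over the 8 columns and was highest in the 2 D0 columns.

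Most genes of the other mitochondrial lists were lower at D6. The 20 genes of the TCA cycle and pyruvate dehydrogenase, which feed electrons to the chain, had a median of -0.68 with 18 lower, led by Pdhx (-1.73). The 76 genes of the mitochondrial ribosome had -0.47 with 70 lower, the 18 of mitochondrial import -0.44 with 14 lower, the 18 electron transfer proteins, such as cytochrome c and the coenzyme Q enzymes, -0.42 with 14 lower, and the 11 of mitochondrial transcription and replication -0.69 with 11 lower. Assembly factors outside the name rule had -0.60 with 16 of 21 lower. Cytosolic ribosome genes, which are not mitochondrial, had -0.20 with 58 of 78 lower.

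At D8 the TCA list stood at -0.58, the mitochondrial ribosome at -0.37 and the cytosolic ribosome at -0.34 with 70 of 77 lower, so that the last was lower at D8 as well, while mitochondrial transcription stood at 0.04, assembly factors outside the name rule at -0.19 and import at -0.29. With USP10 the TCA list stood at -0.27, the mitochondrial ribosome at -0.06 and the cytosolic ribosome at 0.19. Cyc1, cytochrome c1, is a complex III subunit outside the name rule. It measured 415 and 244 FPKM at D0 (log2 ratio -0.77), 190.0 and 113 at D6, 486 and 276 at D8, and 178 and 429.5 in the USP10 table.

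The 9 regulators of nuclear mitochondrial genes gave a mixed picture. Ppargc1b, a coactivator, measured 5.16 and 1.59 FPKM at D6 and 8.38 and 4.97 at D8. Ppargc1a stayed under 1 FPKM in the 6 differentiated columns. Esrrg measured 0.68 and 0.28 FPKM at D6, and 3.77 and 0.68 in the USP10 table (log2 ratio -2.46). With USP10 overexpression 3 of the 8 counted were lower. Esrra (-0.30 at D6 and -0.14 at D8) and Gabpb1 (-0.25 and -0.52) were below their control in both, and Pprc1 gave -0.12 and 0.36. Nrf1 (7.72 and 8.40 at D6), Yy1 (37.0 and 41.6) and Gabpa (24.6 and 27.5) were a little above their control at D6 and below it at D8, with log2 ratios there of -0.33, -0.16 and -0.19. No gene of the mitochondrial DNA had a row in the tables, so the core subunits encoded there were not analysed here.

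**Figure D5:**
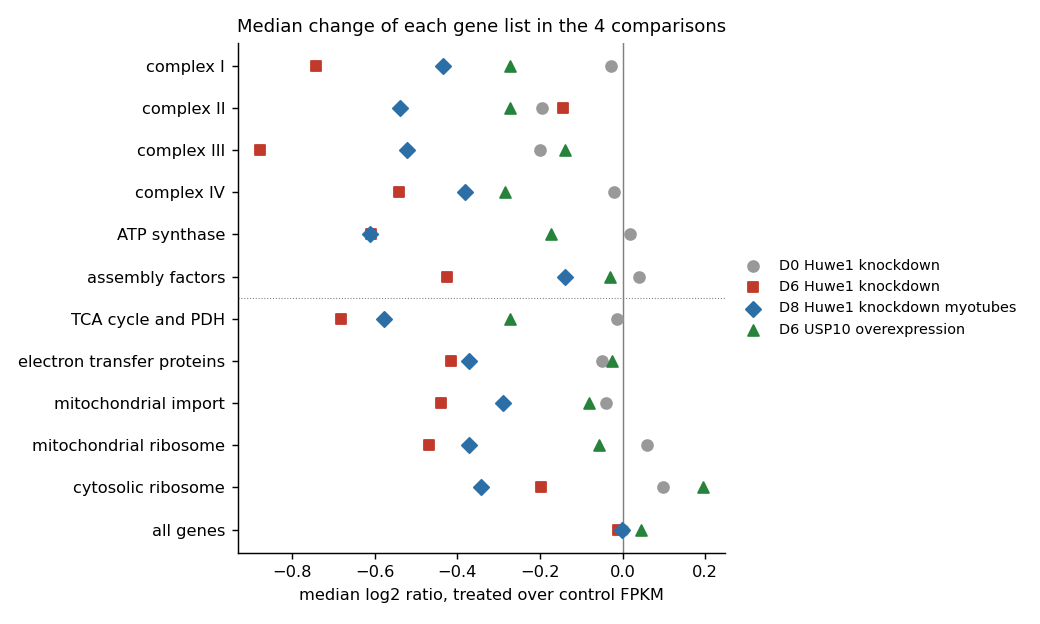
Median log2 ratio of treated to control FPKM (x axis) for each gene list (y axis) in the 4 comparisons, marked by shape and colour. Above the dotted line are the members by role, below it other lists and all genes. At D6 and D8 each of the lists drawn lies to the left of the median of all genes, and mitochondrial transcription, at 0.04 at D8, is not drawn.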

How the data were processed

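RNA from 10 libraries of C2C12 cells was purified with oligo(dT) beads, prepared with the ScriptSeq v2 kit, which keeps strand, and sequenced on an Illumina HiSeq. The authors mapped reads to mm10 (Tophat per the paper, Bowtie2 per the labels) and estimated expression with Cuffdiff; versions and annotation are not given in the sources used here. The values deposited by the authors are FPKM, 1 per condition, in 4 tables that were normalised separately. All 8 FPKM columns were used, and the tables' own fold changes, p-values and q-values were not.

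Log2 ratios were computed with 0.01 FPKM added to each value, over genes that reached 1 FPKM in either column and were above 0 in both, and counted at 2-fold. With 1 value per condition no test was run, so groups were set beside the same counts over all genes. Named genes were the isoform pairs, core subunits of each complex (1 of them is not reported here), and in each comparison the 5 lowest and 5 highest members with at least 10 FPKM in 1 column and 1 in both; other genes named were chosen after their values were seen. Members and lists were chosen with earlier results of these data known. Robust SD is the median absolute deviation scaled to a normal SD.

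Transcript lengths and shared 50-base stretches came from GENCODE M21, using 1 curated transcript per gene, and promoters from RefSeq (GRCm38.p6). Loci are those of the tables. Depth, estimated from the steps between low FPKM values, was 21600000, 30800000 and 17900000 fragments in the D0, D6 and D8 controls, 7800000 in the control of the USP10 table and 27300000 in the USP10 library; pooled columns were not estimated. At 500 bases 1 FPKM is then 3.90 to 15.4 fragments, which covers counting error only. The computations were tested on simulated data. Software was pandas 2.3.3, numpy 2.4.6 and matplotlib 3.10.9 under Python 3.11.15. The alternatives are given in the closing section.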

Additional observations from a re-analysis of the deposited data

Results flagged for a closer look

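Among the members, 2 stood at least 2-fold on one side of the control in one comparison and at least 1.5-fold on the other side in another. Neither difference was tested. Ndufs5 had a log2 ratio of 1.40 with Huwe1 knockdown at D0 and of -1.14 in the D8 myotubes. Atp5k had 1.12 with USP10 overexpression and -0.82 with Huwe1 knockdown in the D8 myotubes. Ndufs5 shares 41.2% of its 50-base stretches with another gene, and Atp5k has a transcript of 371 bases and differed 2.48-fold between the day 6 control columns.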

How the results depend on the processing

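Members counted at 2-fold and their medians were recomputed in 138 alternatives, of which 125 stayed within 1.5 times the count or within 0.1 of the median log2 ratio and 13 moved. None was scored as changing sign, but this was scored only for medians of at least 0.1 in size. It could not arise for the counts or for the D0 median. Including members at exactly 0 in 1 column could change nothing, since no such member reached 1 FPKM in the other. The pseudocounts, filters, centring, completed tests and structural subunits alone were planned, and the other settings were chosen after seeing the data. The day 6 control was exchanged in the 2 comparisons that have it. With the control of the USP10 table, the D6 knockdown had 7 members lower, 1 higher and a median of -0.30. With the D6 control, the USP10 library had 14 lower, 0 higher and a median of -0.44. The share of all genes at least 2-fold apart changed with the control as well, as given in the results. With transcripts of at least 500 bases only, the USP10 comparison had 4 lower and 0 higher, and D8 had 2 lower. Without Cox6a2, Cox7a1 and Cox8b, the USP10 comparison had 4 lower and D8 had 1. With a pseudocount of 1 FPKM, D8 had 2 lower. With members that share at most 40% of their 50-base stretches with other genes, D0 had 0 higher, since Ndufs5 dropped out. Replicates could not be left out, because the tables hold no replicate values. No paired analysis was possible because the result comes from no test. Depth is low behind Cox7a1, with 15.5 and 17.4 fragments in the USP10 table, and behind Cox6b2, with 4.63 and 5.64.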
